A study of Mus musculus with 7 samples.

Results

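A set of 10 genes of the matricellular and transforming growth factor beta (TGF-β) system was examined for noncoding RNAs (ncRNAs) that depend on the T-box factor TBX5 in the adult mouse left atrium. The genes were *Postn*, *Thbs1*, *Thbs2*, *Ctgf*, *Cthrc1*, *Dcn*, *Fbn1*, *Loxl1*, *Tgfb1* and *Tgfb2*, and a locus was counted for a gene wherever the deposited list named that gene among the neighbours of the locus. All 10 genes were named, by 15 of the 1489 loci of the list, beside 17.5% of the 21938 coding genes of GENCODE M21. The genes were chosen with earlier results of these data known, so 10 of 10 describes the choice and is no result. The list came from non-polyadenylated RNA of 7 left atrial libraries from male mice of mixed strain, aged 6 to 8 weeks. The study kept *Tbx5*-dependent ncRNAs that lay within a set distance of coding genes changed in the same direction, and sorted them by direction. The list is likely a part of these, so that selection may in part set which genes its loci neighbour. Its labels carry conflicting marks of direction, so which part it holds was not settled, and a gene with no locus here may have had one among loci not analysed here. The control group had 3 libraries, described in the study as *R26CreERt2*, and the *Tbx5* -/- group had 4, described as *Tbx5* fl/fl;*R26CreERt2*. Both groups thus carried the tamoxifen-inducible Cre. It is driven by the ubiquitous R26 promoter, so that excision is not limited to a cell type, and tissue was taken a week after tamoxifen, with no separate statement on tamoxifen in controls. The labels give the tissue but the list gives no expression level, so neither the tissue nor the loss of *Tbx5* could be checked here. No level, fold change or direction per locus was used here, the depth behind a locus is unknown, and the values below are positions, lengths and conservation scores.

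Matricellular proteins are secreted into the extracellular matrix, where they act on cells and on matrix assembly more than as structural fibres. TGF-β ligands are secreted in a latent form that is held in the matrix by fibrillin microfibrils, and thrombospondin 1 is one of the proteins that can release the active form. Active TGF-β signals through receptor kinases and SMAD proteins and raises matrix gene expression in cardiac fibroblasts, which is why this system is followed in atrial fibrosis.

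The neighbour column did not mean proximity in the same way for each gene. Of the 6595 pairs of a locus and a listed neighbour gene, 5895 (89.4%) lay within 200 kb, measured between the closest edges of locus and gene body. Of the 700 pairs beyond 200 kb, 696 (99.4%) joined a locus to the first listed gene on that side. Of the 15 pairs examined here, 10 (66.7%) lay within 200 kb, and the 5 beyond it were all *Dcn* pairs from a single cluster of loci. The median distance of the 15 pairs was 92.7 kb (range 1.80 to 852.7 kb), beside 95.6 kb for all listed pairs, and 8 of the 15 (53.3%) lay within 100 kb, beside 51.8%.

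**Figure D1:**
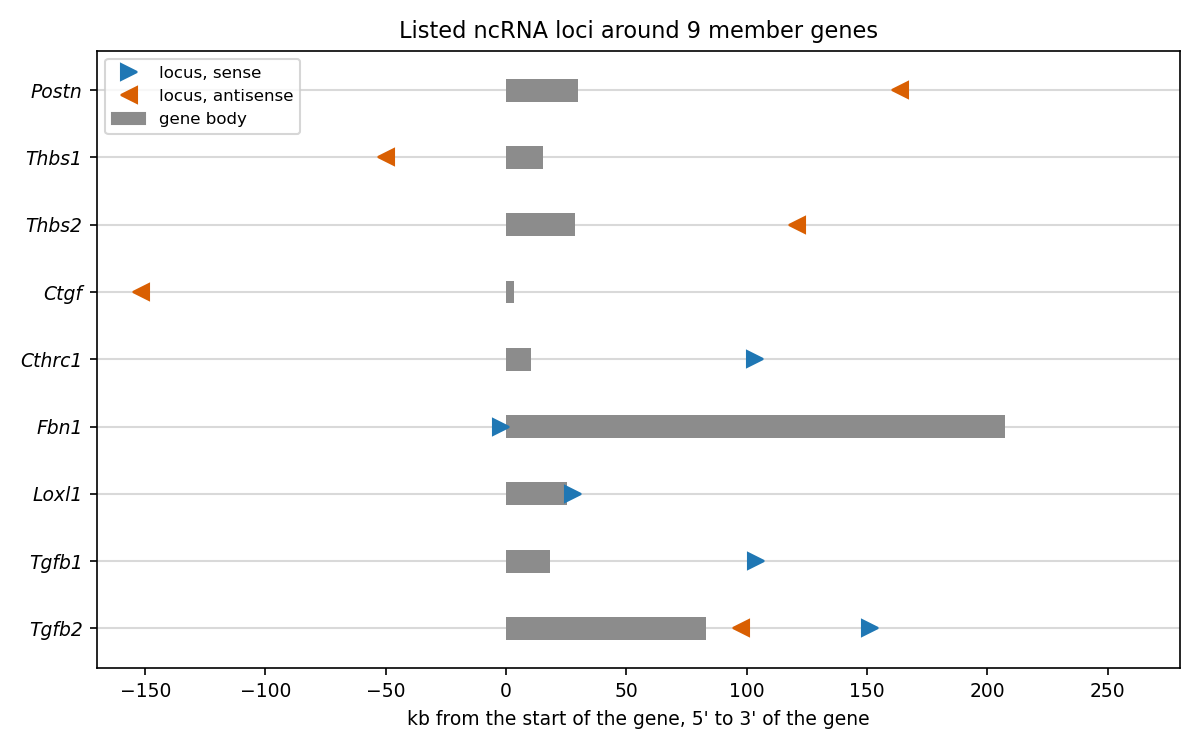
Listed loci around 9 of the genes, drawn 5' to 3' for each gene, with the distance from the gene start in kb on the horizontal axis, the gene body as a grey bar and each locus as a triangle that is blue and points right in sense and is orange and points left in antisense. The loci of *Fbn1* and *Loxl1* touch the drawn ends of their genes at 1.80 and 2.33 kb, and the other 8 loci lie between 12.8 and 151.5 kb away. Triangles are larger than the loci they stand for.

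One of the 10 genes was the closest coding gene of the locus for 7 loci and 6 genes (*Postn*, *Thbs1*, *Thbs2*, *Fbn1*, *Loxl1* and *Tgfb2*). For the other 8 loci, those listed with *Dcn*, *Ctgf*, *Cthrc1* and *Tgfb1*, another coding gene was closer. Of the 7 loci, 5 lay downstream of the gene and 3 were transcribed in its sense orientation, at 1.80 to 133.7 kb. Of the 8, 6 were upstream and 7 in sense, at 85.6 to 852.7 kb, and 5 of these 8 are the *Dcn* loci.

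Among the matricellular genes, *Postn* (mm10 chromosome 3, 54361109 to 54391037, plus strand) encodes periostin, a protein of activated fibroblasts that takes part in collagen assembly. It had 1 locus, XLOC_036057, of 140 bp on the minus strand of chromosome 3 (54524762 to 54524901). The locus was intergenic, 133.7 kb downstream of *Postn* and in antisense to it, and its conservation score was 0.0654. That score is the phastCons probability averaged over the bases of the locus, which runs from 0 to 1. *Postn* was the closest coding gene of this locus even so.

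*Thbs1* (118111876 to 118127133, plus strand) encodes thrombospondin 1, an activator of latent TGF-β. Its locus, XLOC_032789, was 118 bp long on the minus strand of chromosome 2 (118061972 to 118062089), 49.8 kb upstream of *Thbs1* and in antisense. It lay in an intron of the noncoding gene *Gm13986*, in the sense of that transcript. *Gm13986* spans 253.9 kb, and its annotated start lies 674 bases from that of *Thbs1*, on the other strand, so that the pair is arranged head to head. The locus sits inside the antisense transcript, and its score was 0.0183. It was the only one of the 15 loci entered as bidirectional, that is, transcribed from both strands.

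*Thbs2* (14665500 to 14694235, minus strand) encodes thrombospondin 2, a relative that regulates collagen fibril assembly. Its 147 bp locus, XLOC_022571, on the plus strand of chromosome 17 (14573416 to 14573562), was intergenic, 91.9 kb downstream of *Thbs2* and in antisense, with a score of 0.0606. The same locus was listed for *Smoc2*, another matricellular gene, 168.6 kb away, and it lay downstream of both genes, in sense to *Smoc2*. The promoter of *Thbs2* is shown because it held 2 copies of the SMAD element CAGACA, both read as TGTCTG on the strand of the gene and set in capitals. They start 67 and 44 bases before the transcription start in the RefSeq sequence (GRCm38.p6, minus strand, chr17:14694213-14694512).
Thbs2 promoter: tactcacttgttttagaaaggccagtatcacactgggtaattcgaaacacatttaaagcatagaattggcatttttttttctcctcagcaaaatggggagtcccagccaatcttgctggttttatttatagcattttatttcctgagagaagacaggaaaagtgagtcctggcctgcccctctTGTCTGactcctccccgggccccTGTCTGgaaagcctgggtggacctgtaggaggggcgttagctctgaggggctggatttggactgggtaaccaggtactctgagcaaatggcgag
The window runs from 250 bases before the start to 50 after it, 5′ to 3′.

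*Ctgf* (24595442 to 24598683, plus strand), named *Ccn2* in newer annotation, encodes connective tissue growth factor, which TGF-β and the YAP and TEAD factors induce. Its 149 bp locus, XLOC_005512, on the minus strand of chromosome 10 (24443791 to 24443939), was intergenic and lay 151.5 kb upstream of *Ctgf* in antisense. The long noncoding gene *Gm15271*, on the plus strand, was 3.55 kb away, with the locus upstream of it and in antisense. The closest coding gene was *Moxd1*, at 141.0 kb on the other side, slightly closer than *Ctgf*. The score was 0.00112, and 3.16% of the scored loci of the list had a lower one.

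*Cthrc1* (39076932 to 39087121, plus strand) encodes a secreted glycoprotein that rises in injured vessels and fibrotic hearts. Its locus, XLOC_018475, was 955 bp long on the plus strand of chromosome 15 (39179791 to 39180745), 92.7 kb downstream in sense, with a score of 0.0734. The coding genes *Slc25a32* and *Dcaf13* lay between the locus and *Cthrc1*, and *Rims2* was the closest, at 17.5 kb. The last 235 bases of the locus (24.6%) overlapped the processed pseudogene *Gm9522*, of 926 bp. These bases matched the coding transcript of *Gapdh* at 210 of 235 aligned positions (89.4%), and *Gm3839* and *Gm10358* at 211. Of 189 distinct stretches of 47 bases in the overlap, the length of a trimmed read, 13 also occurred in annotated transcripts of other genes, and the others were in no other annotated transcript. The rest of the genome was not searched. The start of *Gm9522* is shown because it is the part of a listed locus whose sequence was held (GENCODE M21 on GRCm38, plus strand, chr15:39180511-39180790). Capitals mark the 235 bases inside the locus.
Gm9522 start: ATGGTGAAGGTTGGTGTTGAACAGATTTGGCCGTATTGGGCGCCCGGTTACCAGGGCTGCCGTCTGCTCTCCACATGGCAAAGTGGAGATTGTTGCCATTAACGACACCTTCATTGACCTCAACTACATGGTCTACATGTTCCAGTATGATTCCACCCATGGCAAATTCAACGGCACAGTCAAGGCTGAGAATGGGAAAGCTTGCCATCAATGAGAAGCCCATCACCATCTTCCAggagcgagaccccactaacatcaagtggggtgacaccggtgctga

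*Dcn* (97479609 to 97518143, plus strand) encodes decorin, a small leucine-rich proteoglycan that binds collagen fibrils and TGF-β. It was listed for 5 loci, more than any other of the 10 genes, and these were also the farthest from their gene. They lay in a span of 12.2 kb on the plus strand of chromosome 10 (96626660 to 96638841), between 840.8 and 852.7 kb upstream of *Dcn* and in sense to it. No coding gene lay between them and *Dcn* in GENCODE M21. The same 5 loci began 3.85 to 15.9 kb past the 3' end of *Btg1*, an antiproliferative gene on the same strand, and they were the whole set of loci listed for *Btg1*.

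From the *Btg1* side, XLOC_004710 was 286 bp long with a score of 0.0285, and XLOC_004711 was 226 bp long with a score of 0.0256. XLOC_004712 was 161 bp long with a score of 0.0938. These 3 loci followed each other at gaps of 61 and 194 bases. After a gap of 8332 bases came XLOC_004716, of 52 bp (score 0.0233), and 2744 bases further XLOC_004717, of 130 bp (score 0.0279). The loci covered 855 bp in all. They do not count as 5 independent observations near *Dcn*, since they share a strand and a 12.2 kb interval.

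**Figure D2:**
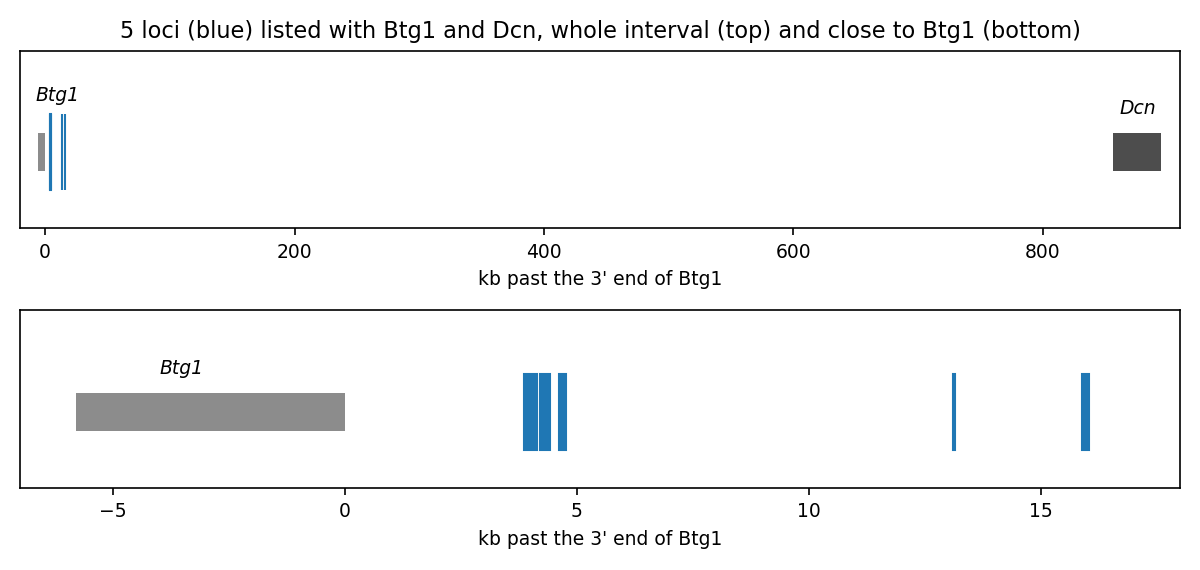
The 5 loci listed with both *Btg1* and *Dcn*, at kb past the 3' end of *Btg1* on the horizontal axis of both panels, with gene bodies as grey bars and loci in blue. The upper panel shows the whole 856.8 kb between the genes and the lower panel the first 18 kb, where the loci begin at 3.85 to 15.9 kb.

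*Fbn1* (125300594 to 125507993, minus strand) encodes fibrillin-1, the main protein of the microfibrils that hold latent TGF-β. Its locus, XLOC_032923, was 266 bp long on the minus strand of chromosome 2 (125509788 to 125510053), and no other of the 15 loci was as close to its gene. It was intergenic, upstream of *Fbn1* and in sense to it. The distance was 1.80 kb to the start of the longer of 2 coding transcripts in GENCODE M21 and 3.40 kb to the start of the other. The short gene *Gm9913*, on the opposite strand, ended 1.91 kb away. The score was 0.000918, and 2.85% of the scored loci had a lower one. The RefSeq promoter of *Fbn1* (GRCm38.p6, minus strand, chr2:125506389-125506688) is shown as the start closest to a locus. Its edge was 3.10 kb from the locus, and it held none of the motifs searched, so no base is in capitals.
Fbn1 promoter: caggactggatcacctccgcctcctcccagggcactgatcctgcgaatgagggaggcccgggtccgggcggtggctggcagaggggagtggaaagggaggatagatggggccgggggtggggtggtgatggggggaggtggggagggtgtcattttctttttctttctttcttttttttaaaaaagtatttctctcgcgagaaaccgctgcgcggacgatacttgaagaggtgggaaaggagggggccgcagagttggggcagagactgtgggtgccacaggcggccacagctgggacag

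*Loxl1* (58287738 to 58313186, minus strand) encodes lysyl oxidase like 1, which crosslinks elastin. Its locus, XLOC_058421, was 127 bp long on the minus strand of chromosome 9 (58285284 to 58285410). It lay 2.33 kb past the 3' end of *Loxl1* in sense, and its score was 0.0304. *Loxl1* had 1 coding transcript in GENCODE M21, so the distance does not depend on a choice of transcript, and the next annotated gene, *Stoml1*, was 22.8 kb from the locus. *Fbn1* and *Loxl1* made up the 2 of 15 pairs (13.3%) within 10 kb, beside 10.9% of all listed pairs.

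Of the ligands, *Tgfb1* (25687002 to 25705077, plus strand) encodes the TGF-β isoform best known in fibrosis. Its locus, XLOC_048803, was 78 bp long on the plus strand of chromosome 7 (25790693 to 25790770), 85.6 kb downstream of *Tgfb1* in sense. It lay in a gene-dense interval with 14 listed neighbours, of which *Tgfb1* was the 5th by distance. *Ccdc97*, *Hnrnpul1* and *Axl* lay between the locus and *Tgfb1*. The closest coding gene was *Axl*, a receptor tyrosine kinase gene, 1.99 kb away, with the locus upstream and in antisense. The score of 0.282 was higher than at 88.5% of the scored loci and higher than at the other 14 loci examined here.

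*Tgfb2* (186622792 to 186705989, minus strand) encodes the isoform known for its part in valve and outflow tract development. It had 2 loci, both downstream of it on chromosome 1, on opposite strands and 51.5 kb apart. XLOC_001795, on the plus strand (186606364 to 186609970), lay 12.8 kb past the gene end in antisense and was intergenic. At 3607 bp it was longer than the other 14 loci, and its score of 0.156 was the next highest after that of the *Tgfb1* locus. XLOC_003655, on the minus strand (186554797 to 186554882), was 86 bp long, 67.9 kb downstream in sense, with a score of 0.0175. It lay in an intron of the long noncoding gene *A730004F24Rik*, in the sense of that gene. *Tgfb2* was the closest coding gene of both loci.

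The promoter of *Tgfb2* (RefSeq, GRCm38.p6, minus strand, chr1:186705940-186706239) is shown because it alone of those read held the T-box core GGTGTG. The core, read here as CACACC, starts 140 bases before the transcription start, and a SMAD element CAGACA starts 204 bases before it. Both are in capitals.
Tgfb2 promoter: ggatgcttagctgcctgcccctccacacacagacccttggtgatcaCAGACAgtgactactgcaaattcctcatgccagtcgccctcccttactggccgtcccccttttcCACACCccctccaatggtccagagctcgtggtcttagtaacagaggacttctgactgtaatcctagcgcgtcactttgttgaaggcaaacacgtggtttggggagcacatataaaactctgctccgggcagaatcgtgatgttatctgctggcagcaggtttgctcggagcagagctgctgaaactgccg

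The promoter sequences covered 5 of the 10 genes (*Fbn1*, *Postn*, *Tgfb1*, *Tgfb2* and *Thbs2*) in 6 windows, with 2 starts for *Postn*. The T-box core was found in 1 of the 6 windows, that of *Tgfb2*, beside 19.0% of all 32851 windows of the same length in the table, both strands searched. The longer T-box motif AGGTGTG, which contains the core, was in none of the 6, beside 5.84%. The SMAD element was in the windows of *Tgfb2* and *Thbs2*, beside 21.04% of all windows. The TEAD core GGAATG was in none of the 6, beside 14.7%. The promoter of *Ctgf*, the gene described above as induced by TEAD factors, was not among those read. These are matches of letters and do not show binding.

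**Figure D3:**
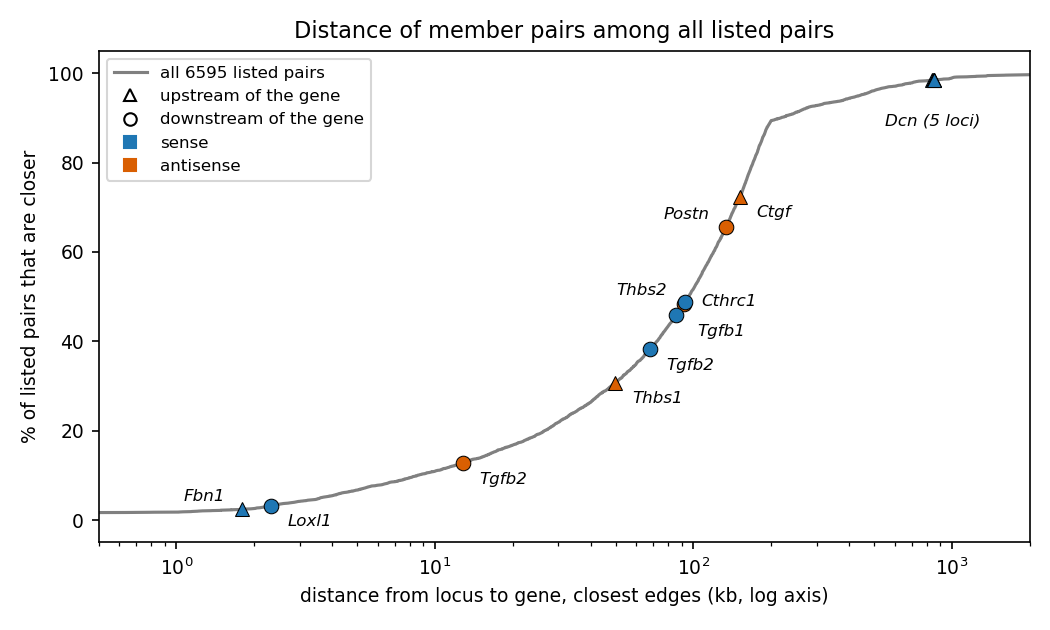
The share of all 6595 listed pairs that are closer than a given distance, on a log axis in kb (grey line), with the 15 pairs marked as triangles upstream and circles downstream of the gene, in blue for sense and orange for antisense. Of all listed pairs, 2.43% are closer than that of *Fbn1*, 3.28% closer than that of *Loxl1* and 98.4% to 98.5% closer than those of *Dcn*, and the line bends at 200 kb.

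Downstream pairs made up 7 of 15 (46.7%, 95% Wilson interval 24.8% to 69.9%), beside 46.9% of all pairs, and the other 8 were upstream. No locus lay inside any of the 10 genes, beside 1.64% of all pairs, and the authors had kept loci away from coding gene starts, so that positions are in part set by their selection. Sense pairs made up 10 of 15 (66.7%, 41.7% to 84.8%), beside 57.1% of all pairs whose locus has a strand. The *Dcn* loci gave 5 of the 10 sense pairs. Without the *Dcn* loci, 50.0% of pairs were in sense and 70.0% were downstream. These intervals cover counting error only and take loci as independent, which the *Dcn* loci are not. Reads were described as stranded, whereas the library kit named in the labels does not by itself mark strand. Sense and antisense thus rest on the deposited strand. Loci entered as bidirectional, 23.4% of the list and the *Thbs1* locus here, were also counted by that strand alone.

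The loci had a lower median conservation score than the list, and the gap was smaller without the *Dcn* loci. The interval of the median length of the 15 loci included the median of the list. The median length was 147 bp (order-statistic interval 118 to 266 bp, n = 15), beside 197 bp for the list, and 10 of the 15 were shorter than that median. The median conservation score was 0.0285 (0.0183 to 0.0734), beside 0.0759 (0.0689 to 0.0830) for the 1264 scored loci. All 15 had a score, beside 84.9% of the list. Of the 15, 12 scored below the median of the list and 6 below its lower quartile of 0.0261, whereas 2, those of *Tgfb1* and the longer *Tgfb2* locus, were above its upper quartile of 0.155. With the *Dcn* loci left out the median score was 0.0455. The conservation interval for the 15 loci overlapped that of the list. Both intervals for the 15 loci take loci as independent, which the *Dcn* loci are not, so they are too narrow to set the loci apart from the list. The difference from the list was not tested, since loci are not replicates.

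**Figure D4:**
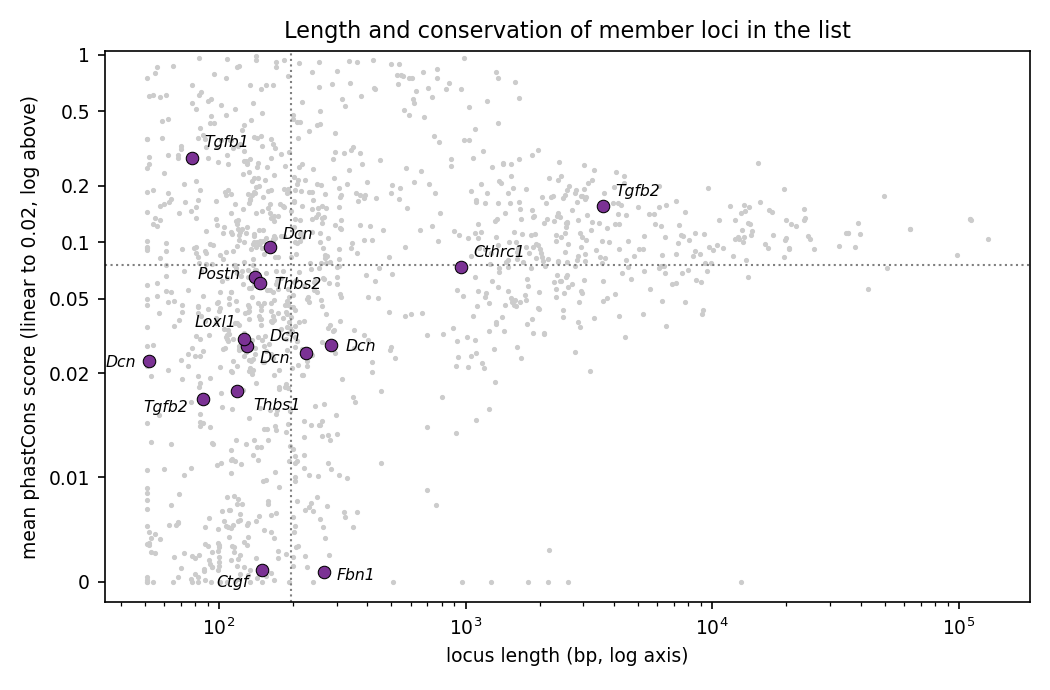
Length in bp (log axis) against mean phastCons score (linear up to 0.02, log above) for the scored loci of the list in grey and the 15 loci in purple, each labelled with its gene. Dotted lines mark the medians of the list, 197 bp and 0.0759, and 12 of the 15 loci lie below the horizontal one.

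Transcription from both strands was entered for 1 of 15 loci (6.67%, 1.19% to 29.8%), beside 23.4% of the list. An annotated noncoding gene was given by the authors for 2 loci (13.3%), those of *Thbs1* and *Cthrc1*, beside 13.6% of the list. GENCODE M21 added *A730004F24Rik* over a *Tgfb2* locus, and the other 12 loci were intergenic. Apart from the *Dcn* loci, each of the 15 stood alone, with the next listed locus 51.5 to 3286 kb away. These were 10 of 15 (66.7%, 41.7% to 84.8%), beside 54.9% of the list with no other listed locus within 10 kb. Of the 10 genes 8 had a single locus, beside 71.3% of the neighbour genes of the list, whereas 5 or more loci, as for *Dcn*, were found for 4.06%.

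None of the 10 genes was entered in the authors' column of linked genes, which holds nearby genes of the differential expression test. That column named 286 of 3959 neighbour genes, 7.22%, a share that corresponds to fewer than 1 of 10 genes. The heading of the column carries an abbreviation that was not resolved here, so a missing entry does not show that a gene did not change. The only entry at the 15 loci was *Cyp2b10*, a cytochrome P450 gene, at the *Tgfb1* locus, 106.9 kb away.

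Of 103 other genes in 8 lists of the same system, 23 were neighbours of a listed locus, in 37 pairs. That is 22.3%, beside the 17.5% of all coding genes, and the difference was not tested. The lists were chosen with earlier results of these data known, so neither this share nor the linked share below is a result about the system. Of the 23 neighbours 3 (13.04%) were linked, beside 7.22% of all neighbour genes. Among 22 matricellular genes 6 were neighbours. *Smoc1* had sense loci 3.49 and 5.50 kb past its end, and *Cyr61*, a relative of *Ctgf*, an antisense locus 28.8 kb upstream. *Wisp1*, another relative, was linked to XLOC_019656, 136.8 kb downstream in antisense. *Smoc2*, *Sparcl1* and *Spp1* were the others. Of 10 small leucine-rich proteoglycan genes besides *Dcn*, *Fmod* and *Prelp* shared 1 locus, 43.6 and 72.0 kb away. None of 4 lysyl oxidase genes besides *Loxl1* was a neighbour. Of 13 microfibril and elastic fibre genes *Emilin2* was a neighbour, linked to the 393 bp locus XLOC_024986 at 7.12 kb upstream in sense, with a score of 0.178.

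On the signalling side, 3 of 19 genes of ligands and inhibitors were neighbours, all with antisense loci downstream. *Inhba*, which encodes an activin subunit, accounted for 13 of their 15 pairs. *Gdf6* and *Chrdl1* were the others. Of 12 receptor genes 5 were neighbours, namely *Tgfbr2* with a sense locus 77.9 kb upstream, *Tgfbr3* with an antisense locus 101.6 kb upstream, *Bmpr1b* with a sense locus 56.8 kb upstream, and *Acvr1b* and *Acvrl1*, which shared a sense locus downstream. Of 13 genes of SMADs and modulators 4 were neighbours. The 1522 bp locus XLOC_058519, on chromosome 9, lay 11.1 kb downstream of *Smad6*, an inhibitory SMAD, and 182.4 kb upstream of *Smad3*, a SMAD that carries TGF-β signals, in sense to both, and it was linked to *Smad3*. *Smad2* and *Tgif1* were the others. Of 10 target genes *Has2* and *Id3* were neighbours, *Has2* at 615.8 and 625.8 kb and *Id3* at 143.7 kb. Another coding gene was closer to the locus than *Has2*, *Id3*, *Wisp1*, *Smoc2*, *Sparcl1*, *Spp1* and *Prelp*. That was also so for *Smad3*, *Tgfbr3*, *Bmpr1b*, *Acvr1b* and *Acvrl1*. Without *Inhba*, 16 of 24 pairs were in sense and the median distance was 77.6 kb.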

How the data were processed

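Per the labels and the study's methods, rRNA-depleted and oligo-dT-depleted left atrial RNA was sequenced with stranded single-end reads from 3 control and 4 *Tbx5* knockout libraries. The authors used TopHat2 for alignment to mm10 (versions 2.0.13 and 2.0.10 in the submitters' processing notes), assembled transcripts with Cufflinks, counted them with featureCounts and tested genotypes with DESeq. The 2 deposited tables were identical, so 1 was used. Of its 1490 rows, 1 was emptied for this work. The deposited conservation value is a fraction from 0 to 1, the phastCons score averaged by the authors over each locus in mm9, with unscored bases removed. Positions are given in mm10.

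Here, loci were chosen by exact match of a member symbol in the neighbour column, and every locus of a member was named. Genes were placed with GENCODE M21 on GRCm38, the assembly of mm10, with older symbols found through RefSeq synonyms (3939 of 3959 neighbour symbols matched). Loci were joined into a cluster over gaps of up to 10 kb. Similarity used BLAST 2.17.0. Intervals are 95%. The genes and lists were chosen with earlier results of these data known. The code for side, orientation and distance was tested on simulated data and recovered 1000 of 1000 planted loci. No genotype test was run, since levels per library were not analysed here, and loci are not replicates. Motifs were searched in RefSeq promoters only, because a genome sequence was not used here.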

Additional observations from a re-analysis of the deposited data

How the results depend on the processing

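Across 10 results, 29 of 34 alternatives left a share or median within its interval, or a count within 1.5 times. The intervals were wide, 49.8 to 843.6 kb for the median distance and 41.7% to 84.8% for the sense share. Staying within them is thus a weak check. Matching older and newer symbols changed nothing that was counted. Keeping only loci whose closest coding gene was a member left 7 pairs, 7 loci and 6 genes, and raised the share downstream to 71.4%. Without the member with most loci, *Dcn*, that share was 70.0%, since all *Dcn* loci were upstream. With 1 locus per cluster it was 63.6%, and the sense share was 54.5%. Measured from locus midpoint to gene start, the median distance was 151.1 kb. The alternatives with 1 value per gene, and the 200 kb reach of the neighbour column, were chosen after seeing the data. The planned search for T-box motifs in windows around the loci, in each form, was not run, because a genome sequence was not used here. No paired analysis was possible because the list as used here holds no values per library. For the same reason no library could be left out, and the spread between animals is unknown for each locus.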
